A study of Mus musculus with 6 samples.

Results

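The replication-dependent histone genes encode the linker histone H1 and the core histones H2A, H2B, H3 and H4, and most of them lie in clusters of small genes. Histone genes were picked from the deposited count table by name (symbols beginning with H1f, H2ac, H2bc, H3c or H4c, and the older form Hist followed by a digit and h). This rule also took in genes that are not replication-dependent, such as *H1f0*, and the pseudogene *H1f11-ps*. Of 55367 gene names in the table, 72 met this rule and 59 of them had at least 10 counts summed over the 6 libraries. These 59 genes comprised 9 of H1, 13 of H2A, 15 of H2B, 11 of H3 and 11 of H4. By the positions in the table (GRCm38, also called mm10), 49 were on chromosome 13, 7 on chromosome 3 and 1 each on chromosomes 6, 15 and 19. The member with the fewest counts had 12, and the highest count among the 13 genes left out was 8.

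The cells were primary keratinocytes, the main cell type of the epidermis, isolated from the skin of pups of day 2 of the *Ppp1r13l* flox/flox;Cre+ERT genotype on a mixed C57BL/6 and 129/Sv background. *Ppp1r13l* encodes iASPP, and in every culture both of its copies carried loxP sites around exon 8, together with an ERT-fused Cre recombinase inserted at the ROSA26 locus, which is active in all cell types and not only in keratinocytes. Medium was changed 24 h after plating to medium with tamoxifen (iASPP KO, n = 3) or without it (iASPP WT, n = 3). The labels put 1 culture of each condition in each of 3 batches and do not say what a batch shares. Cells were then kept for 4 days. The concentration of tamoxifen is 1 mM in the labels and 1 μM in the methods, and because no control culture received the drug, its effect and that of the deletion cannot be told apart.

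Canonical histone genes are transcribed in S phase, under NPAT in the histone locus body. Their mRNAs end in a stem-loop bound by SLBP in place of a poly(A) tail and are cleaved by a complex holding the U7 small nuclear RNA. A smaller number of histone genes, such as that of H1.0, are expressed outside S phase and with a poly(A) tail. Ribosomal RNA was depleted before sequencing and no poly(A) selection was made, so that tailless histone mRNAs were also read, as single reads of 42 bases.

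The stem-loop is shown first because it defines this mRNA class. It was present in the longest GENCODE vM21 transcript of 36 of the 59 genes, against 0.287% of all 21951 protein-coding genes of that annotation. Its commonest form, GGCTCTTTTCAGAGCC, occurred in 18 genes of H1, H2A, H2B and H3. The form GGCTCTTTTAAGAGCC occurred in 6 genes, and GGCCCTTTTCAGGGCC in 5, all of H4. Where it was not found, as for *H4c12* with an annotated transcript of 312 bases and *H2bc18* with 381, the annotation may stop before it, so that its absence describes the annotated transcript only. The following lines give the stem-loop (capitals) of a gene of H2A, H2B, H1 and H4 with 5 bases on either side.
H2ac11: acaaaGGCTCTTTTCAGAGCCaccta
H2bc12: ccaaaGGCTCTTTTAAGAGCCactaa
H1f3: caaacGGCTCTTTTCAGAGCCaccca
H4c4: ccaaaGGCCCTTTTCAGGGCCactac

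Promoters of 4 genes are shown because their mRNAs had the strongest evidence of a fall (*H1f5*, *H2bc12*), passed the test as higher (*H2bc1*) or were the highest linker level per length (*H1f2*). They are RefSeq sequences of GRCm38.p6 from 250 bases before to 50 after the annotated start, at chr13:21780576-21780875 (minus strand), chr13:22035571-22035870 (plus strand), chr13:23934107-23934406 (minus strand) and chr13:23738557-23738856 (plus strand). Capitals mark, on either strand, CCAAT (the CCAAT box), TATAAA (the TATA box), ATTTGCAT (the octamer read by Oct factors), TTTCGCGC or TTTGGCGC (E2F sites) and AAACACA (the AC box of H1 genes).
H1f5: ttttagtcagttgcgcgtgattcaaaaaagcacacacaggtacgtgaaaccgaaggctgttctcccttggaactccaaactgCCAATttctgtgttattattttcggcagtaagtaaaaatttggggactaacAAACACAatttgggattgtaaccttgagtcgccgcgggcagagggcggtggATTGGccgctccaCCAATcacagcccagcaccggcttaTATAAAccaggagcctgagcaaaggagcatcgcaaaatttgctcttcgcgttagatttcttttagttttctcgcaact
H2bc12: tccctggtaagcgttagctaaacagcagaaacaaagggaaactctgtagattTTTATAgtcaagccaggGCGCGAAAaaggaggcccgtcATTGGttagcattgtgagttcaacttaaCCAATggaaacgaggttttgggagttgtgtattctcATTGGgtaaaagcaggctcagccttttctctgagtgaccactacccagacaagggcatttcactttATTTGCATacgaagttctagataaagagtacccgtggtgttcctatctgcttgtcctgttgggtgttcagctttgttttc
H2bc1: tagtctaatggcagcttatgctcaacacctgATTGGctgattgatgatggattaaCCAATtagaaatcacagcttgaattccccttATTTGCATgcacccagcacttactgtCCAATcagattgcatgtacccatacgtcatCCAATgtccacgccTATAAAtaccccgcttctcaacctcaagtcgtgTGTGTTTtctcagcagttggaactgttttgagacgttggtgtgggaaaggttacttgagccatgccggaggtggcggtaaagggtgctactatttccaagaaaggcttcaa
H1f2: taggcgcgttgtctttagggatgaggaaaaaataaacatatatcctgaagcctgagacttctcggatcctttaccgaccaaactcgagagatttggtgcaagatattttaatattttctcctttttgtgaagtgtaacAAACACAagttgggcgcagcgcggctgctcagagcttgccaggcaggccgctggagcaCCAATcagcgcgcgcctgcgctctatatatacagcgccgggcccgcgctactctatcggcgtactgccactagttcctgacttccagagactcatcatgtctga

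RefSeq promoters were matched for 53 of the 59 genes. CCAAT was present in 44 of them, against 37.4% of all 32851 promoters of the same length. TATAAA was present in 32 (13.6% of all promoters), at any place in the window and on either strand, so that a match need not be a TATA box of that gene. The octamer occurred in 13 promoters, 6 of H2A and 7 of H2B genes and in no promoter of the other classes, against 1.74% of all promoters. An E2F sequence occurred in 9, 5 of H2A and 4 of H2B genes (0.813% of all promoters), and AAACACA in 9, of which 5 were among the 8 H1 promoters (7.18% of all promoters). The AP-1 sequence TGACTCA was in none of the 53 on either strand, against 5.20% of all promoters. Genes that face each other share promoter bases, so that the same site can be counted for both. No match shows only that these letters are not in this window.

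Libraries held 20202517 to 25157117 counts, and 14916 genes were tested across the table, with a median log2 fold change of 0.01. *Ppp1r13l* had 14.3, 17.7 and 5.91 CPM (library-scaled counts) in the KO cultures of batches 1 to 3 and 32.7, 45.1 and 21.0 in the WT cultures. Its log2 fold change was -1.45 ± 0.18 (SE, n = 3 batches, adjusted p = 0.0030 by edgeR). Counts are per gene, so which exons or cells gave the reads that remained in KO is not known. The keratinocyte keratin *Krt14* was at 14958 to 17578 CPM in the 6 libraries and the median log2 fold change of 7 keratinocyte markers was -0.09. Summed CPM of 6 macrophage or leukocyte markers were 64.8 to 80.9 in KO and 43.6 to 63.6 in WT, without overlap (1 higher of 5 tested), those of 5 melanocyte markers 354 to 1086 and those of 4 endothelial markers 2.16 to 12. Their part in the histone values was not tested. Batch 3 stood apart. Summed CPM of 8 fibroblast markers were 626 (KO) and 817 (WT) there and 52.1 to 70.0 in the other 4 libraries. Of these markers 2 were called lower in KO, *Col1a2* (-0.55 ± 0.13, adjusted p = 0.043) and *Col3a1* (-0.87 ± 0.18, adjusted p = 0.027), with a median of -0.44 over the 8, and both calls were lost when 1 batch was left out. Summed CPM of 6 suprabasal keratinocyte markers were 765 and 594 there and 1793 to 2366 elsewhere, with 2 of the 6 called lower and 1 higher. The histone genes moved with that batch: the median ratio of batch 3 to the mean of batches 1 and 2 was 2.93 over the 53 tested histone genes, all of them above 1, and 1.01 over all tested genes. The part of fibroblasts and of suprabasal cells in the histone levels and differences was not tested. Comparisons below are therefore made within batches, and every call of a histone cluster gene remained with batch 3 left out. P-values and SE rest in part on the spread of the difference between the 3 labelled batches (2 residual degrees of freedom). They also rest on a variance estimated over all genes (8.17 prior degrees of freedom), and so do not measure that spread alone. In RNA of whole cultures, fewer cells in S phase and less histone mRNA per cell cannot be told apart.

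Histone mRNAs were mostly lower in iASPP KO keratinocytes. Of the 53 tested histone genes, 18 were significantly lower (1.95% of all tested genes were called lower), and 1, *H2bc1*, was significantly higher (2.17% of all tested genes were called higher). The log2 fold change was negative for 46 and positive for 7, with a median of -0.81 and a range of -1.64 to 2.64. The upper end was the pseudogene *H1f11-ps* (49 counts over the 6 libraries, SE 1.70), and the next highest value was 1.04, of *H2bc1*. A lower value in KO in all 3 batches was found for 42 of the 53, against 19.5% of all tested genes, and a higher value in all 3 for 5, also against 19.5%. At an unadjusted p under 0.05, 40 were lower and 3 higher, against 8.09% and 8.66% of all tested genes. Within batches 1, 2 and 3 the median difference over the 53 genes was -0.86, -0.76 and -0.59 (log2). The levels of the groups nonetheless overlapped across batches. Batch 3 was high in both conditions, and in no gene was every KO culture below every WT culture. *H1f2* alone had every KO culture above every WT culture. The share of all tested genes whose groups do not overlap was not counted, so no statement on overlap in this text has a background.

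The adjusted p-values of the 19 calls (edgeR's quasi-likelihood test with a batch term) ran from 0.0024 to 0.046. With batch 1 left out 10 of the 19 calls remained, with batch 2 left out 6, and with batch 3 left out all 19. Calls over the whole table moved as well, from 291 lower and 323 higher genes in the main fit. They were 151 and 169 without batch 1, 117 and 174 without batch 2, and 662 and 793 without batch 3. The calls of *H1f5*, *H1f1*, *H2bc12*, *H2ac15* and *H4c12* remained in each case. Without the batch term no histone gene passed the threshold (0 lower and 1 higher at an unadjusted p under 0.05). With DESeq2, 19 of 19 were called. Another 7 tested genes had adjusted p-values between 0.05 and 0.1.

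**Figure D1:**
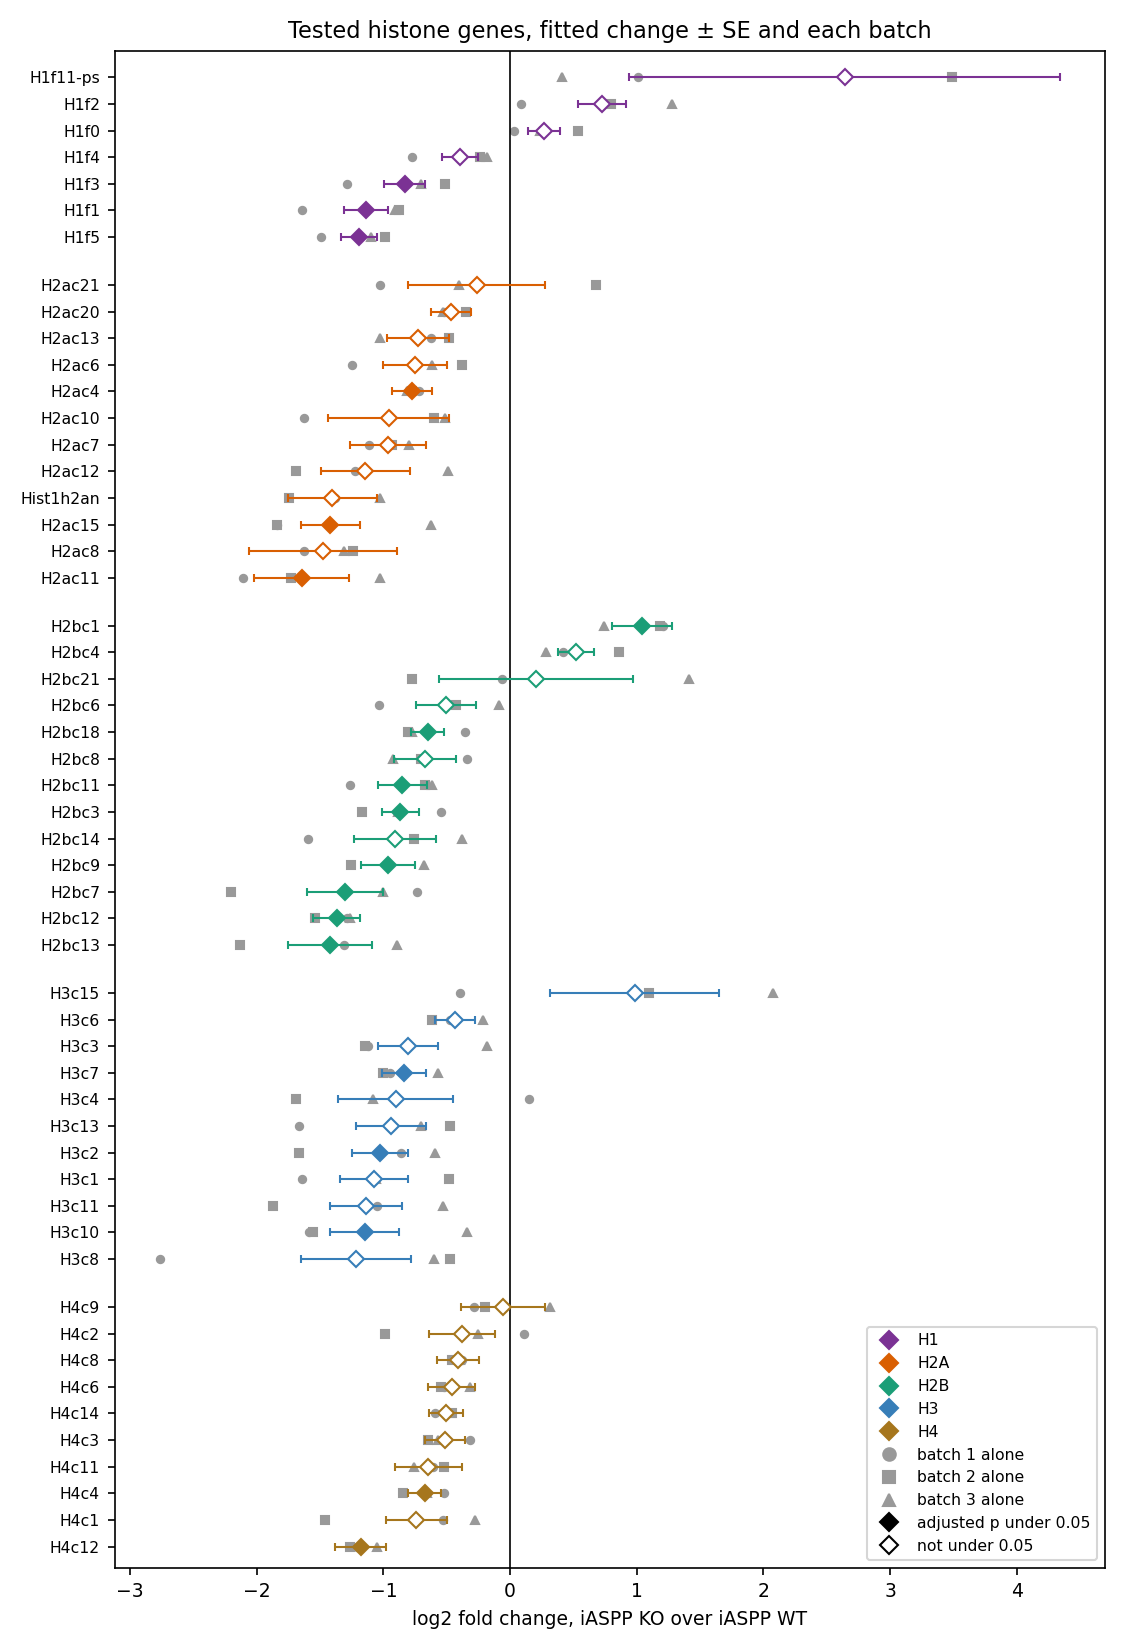
Log2 fold changes of the 53 tested histone genes by class (iASPP KO over iASPP WT). Diamonds are the fitted values with their SE, filled where the adjusted p was under 0.05, and grey symbols are the 3 batches alone. H2A and H4 genes all lie left of 0, while H1 and H2B each hold 3 genes to its right.

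Summed over the members, H2A, H2B, H3 and H4 transcripts were lower in KO in each batch, and H1 transcripts were not. The summed CPM of H2A were 55.9, 58.2 and 190 in the KO cultures and 129, 108 and 310 in the WT cultures. The KO to WT ratio of H2A was 0.522 (mean log2 ratio -0.94 ± 0.26, SD, n = 3). It was 0.555 for H3 (-0.85 ± 0.33), 0.666 for H4 (-0.59 ± 0.14) and 0.741 for H2B (-0.43 ± 0.08), so the sums of the 4 core classes had 1 direction. Their order by size depends on the measure. The median log2 fold change of tested genes was -0.85 for H2B and -0.51 for H4. *H2bc4*, higher in KO in each batch, held 55.9, 63.0 and 102 of the 171, 154 and 443 summed H2B CPM in KO. The summed CPM of H1 were 427, 563 and 933 in KO and 516, 443 and 867 in WT, a mean log2 ratio of 0.06 ± 0.31, with batch 1 lower and batches 2 and 3 higher. The sum and the median of H1 (-0.40 over 7 tested genes) had opposite signs. *H1f0* and *H1f2* held most of the H1 counts. All 59 genes together took 0.0759%, 0.0872% and 0.223% of the counts in KO and 0.116%, 0.0991% and 0.285% in WT.

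**Figure D2:**
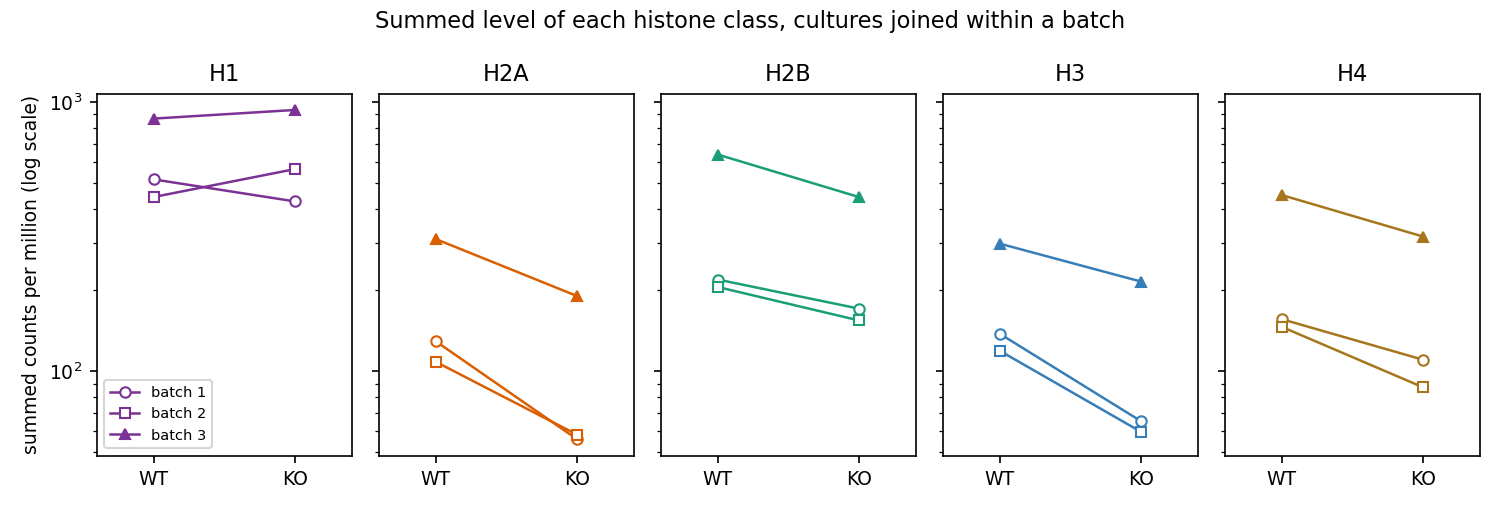
Summed CPM (log axis) of the histone genes of each class, with the WT and KO culture of each batch joined by a line. Every line of H2A, H2B, H3 and H4 falls towards KO, batch 3 lies above the other batches, and the H1 lines cross.

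Linker histones, which bind the DNA between nucleosomes, held genes that fell and genes that were higher in KO. *H1f5* (H1.5, chr13:21779883-21780625) had 17.1, 20.7 and 57.6 CPM in KO and 48.2, 41.1 and 124 in WT. In each batch the KO culture was the lower one, and the KO level was 0.437 of WT (log2 fold change -1.19 ± 0.14, adjusted p = 0.0024), the lowest adjusted p of all the histone genes. *H1f1* (H1.1) had 8.28, 9.92 and 63.7 CPM in KO and 26.1, 18.3 and 120 in WT. It fell to 0.455 (-1.14 ± 0.18, adjusted p = 0.0081). *H1f3* (H1.3) had 17.7, 22.9 and 66.2 CPM in KO and 43.3, 32.7 and 108 in WT, and fell to 0.561 (-0.83 ± 0.16, adjusted p = 0.022). Its call was lost when 1 batch was left out, with an adjusted p of up to 0.107. *H1f4* (H1.4) was lower in KO in each batch and did not pass (-0.40 ± 0.14, adjusted p = 0.19).

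*H1f2* (H1.2) showed the opposite pattern. It had 148, 210 and 333 CPM in KO and 139, 121 and 137 in WT. The groups did not overlap. The KO excess was 0.09, 0.80 and 1.28 (log2) in batches 1, 2 and 3, a log2 fold change of 0.72 ± 0.19 that missed the threshold (adjusted p = 0.066). *H1f0*, the gene of the replication-independent linker histone H1.0 that accumulates in cells leaving the cycle, had 197, 250 and 313 CPM in KO and 194, 173 and 265 in WT. It was higher in KO in all 3 batches by little (0.27 ± 0.12, adjusted p = 0.32). Per kilobase of exon, *H1f2* and *H1f0* stood close together at 116 and 113 CPM, above *H1f5* at 69.2. *H1f10* (29 counts) and the testis gene *H1f6* (20 counts) were too low to test, and the pseudogene *H1f11-ps* had 38 counts in KO and 11 in WT, with 0 in WT batches 1 and 2 (adjusted p = 0.51).

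**Figure D3:**
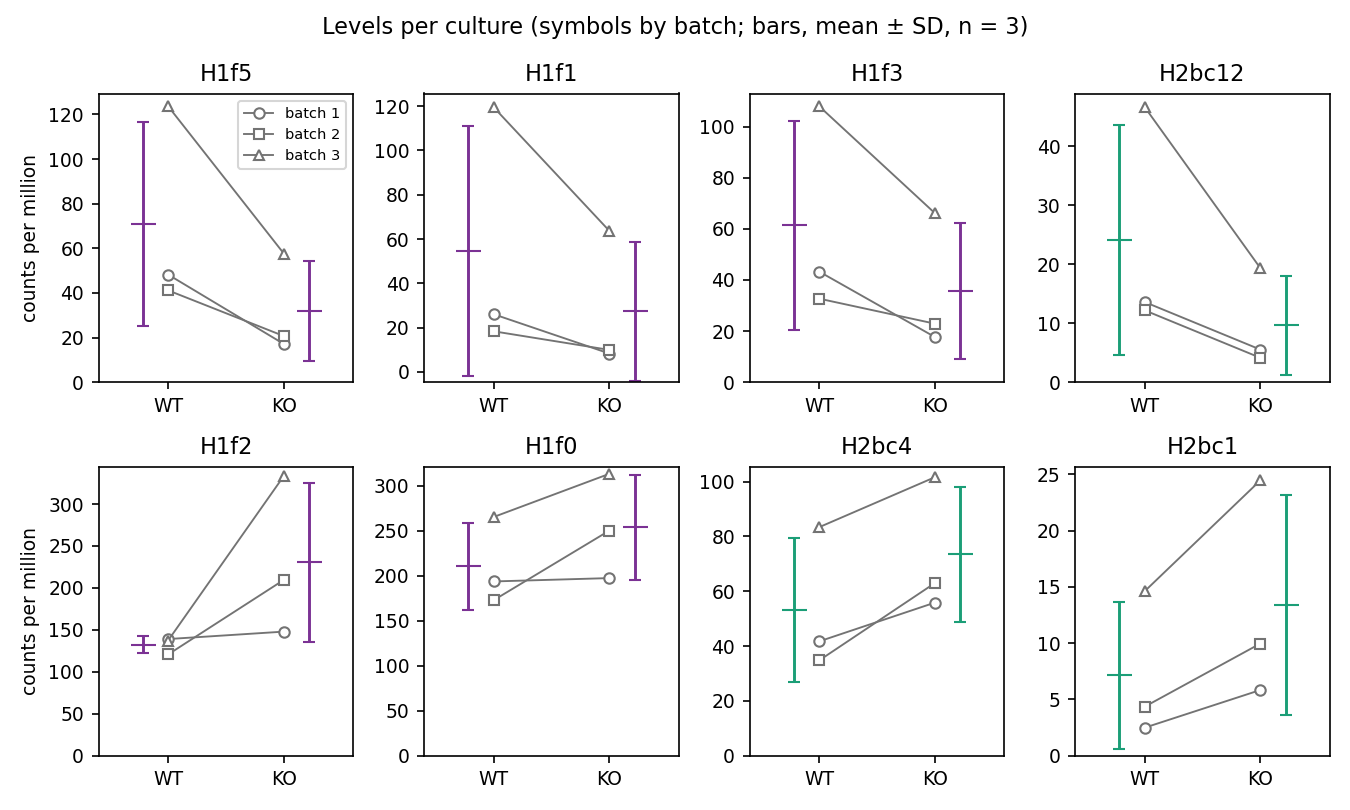
CPM of 8 histone genes in each culture, with batches joined and the mean ± SD (n = 3) of each condition beside them. In each batch the upper row except H2bc12 shows linker genes lower in KO, H2bc12 is lower too, and the lower row shows H1f2, H1f0, H2bc4 and H2bc1 higher in KO.

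H2A pairs with H2B in the nucleosome, and all 12 tested H2A genes had negative log2 fold changes, 11 of them lower in every batch. Of these, 3 passed the test. *H2ac15*, the H2A gene with most counts per length (122 CPM per kilobase), had 12.8, 8.80 and 73.6 CPM in KO and 46.1, 31.7 and 114 in WT. It fell to 0.374 (-1.42 ± 0.23, adjusted p = 0.0095), with a smaller difference in batch 3 (-0.63) than in batches 1 and 2 (both -1.84). *H2ac11* had the lowest log2 fold change of any histone gene, -1.64 ± 0.38 (adjusted p = 0.039), from 1.16, 0.988 and 5.61 CPM in KO and 5.29, 3.49 and 11.5 in WT. *H2ac4* fell to 0.584 (-0.78 ± 0.16, adjusted p = 0.026), and its differences in the 3 batches, -0.72, -0.77 and -0.82, were close together. The abundant *H2ac20* and *H2ac6* did not pass (-0.47 ± 0.16 and -0.75 ± 0.25), and nor did *H2ac21* (-0.26 ± 0.54), the 1 H2A gene that was higher in KO in a batch (batch 2). The other 6 tested genes were between -1.48 and -0.73, with adjusted p-values of 0.056 to 0.36.

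H2B held the most calls, 7 lower and 1 higher among 13 tested genes. *H2bc12* (chr13:22035870-22036345) had 5.52, 4.13 and 19.3 CPM in KO and 13.6, 12.2 and 46.6 in WT. It fell to 0.387 (-1.37 ± 0.19, adjusted p = 0.0043), by a similar amount in each batch (-1.29, -1.54 and -1.27). *H2bc18* on chromosome 3, the highest histone gene per length (202 CPM per kilobase), had 37.8, 28.0 and 110 CPM in KO and 48.5, 49.1 and 189 in WT and fell to 0.637 (-0.65 ± 0.13, adjusted p = 0.024). *H2bc3* had 35.6, 23.1 and 58.8 CPM in KO and 51.9, 52.2 and 109 in WT, a fall to 0.549 (-0.87 ± 0.15, adjusted p = 0.012). The other genes that fell were *H2bc13* (-1.42 ± 0.33), *H2bc7* (-1.30 ± 0.30), *H2bc9* (-0.96 ± 0.21) and *H2bc11* (-0.85 ± 0.20). Of the 7 lower calls, only that of *H2bc12* remained with any 1 batch left out.

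*H2bc1*, which encodes the H2B form known from testis (TH2B), was the 1 histone gene significantly higher in KO. It had 5.84, 9.97 and 24.5 CPM in KO and 2.48, 4.35 and 14.6 in WT, or 131, 222 and 576 counts against 53, 106 and 328. KO was the higher culture in each batch, by 2.06-fold in the fit (1.04 ± 0.24, adjusted p = 0.037, up to 0.169 with 1 batch left out). *H2bc4* had 55.9, 63.0 and 102 CPM in KO and 41.7, 34.7 and 83.4 in WT. Its excess in every batch (0.52 ± 0.14) missed the threshold in the edgeR fit (adjusted p = 0.076) and passed it with DESeq2 (adjusted p = 0.038). *H2bc21* differed in sign between batches (0.20 ± 0.77). The remaining 3 tested H2B genes had log2 fold changes of -0.91 to -0.51 and did not pass.

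H3, which carries many of the known regulatory modifications, had 10 of 11 tested genes with negative values and 3 that fell. *H3c10* had 6.15, 3.37 and 22.4 CPM in KO and 18.6, 10.1 and 28.3 in WT, with a fall to 0.452 (-1.15 ± 0.27, adjusted p = 0.046). *H3c2* had 12.7, 5.61 and 29.5 CPM in KO and 23.2, 18.0 and 44.6 in WT, and fell to 0.491 (-1.03 ± 0.22, adjusted p = 0.030). *H3c7* had 8.42, 9.07 and 31.5 CPM in KO and 16.4, 18.3 and 46.8 in WT, and fell to 0.559 (-0.84 ± 0.18, adjusted p = 0.028). In all 3 genes the smallest difference was in batch 3 (-0.34, -0.59 and -0.57). Among the others, *H3c6*, the H3 gene with most counts, was at -0.43 ± 0.16, *H3c3* at -0.81 ± 0.24, *H3c13* at -0.94 ± 0.28 and *H3c8* at -1.22 ± 0.43, none of which passed. *H3c15* was the 1 H3 gene with a positive value, 0.98 ± 0.66, and its batches differed in sign.

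H4, the partner of H3, had negative values for all 10 tested genes with the smallest median of the core classes (-0.51), and 2 of them fell. *H4c12* had 4.23, 3.37 and 17.6 CPM in KO and 9.89, 8.20 and 36.5 in WT. It fell to 0.441 (-1.18 ± 0.20, adjusted p = 0.013), with -1.21, -1.26 and -1.05 in the 3 batches. *H4c4*, the H4 gene with most counts, had 28.9, 23.4 and 72.5 CPM in KO and 41.6, 42.1 and 114 in WT, and fell to 0.627 (-0.67 ± 0.13, adjusted p = 0.020). *H4c14* (-0.51 ± 0.13, adjusted p = 0.070), *H4c3* (-0.51 ± 0.16) and *H4c8* (-0.41 ± 0.17) were lower in each batch and did not pass. *H4c9* was nearest to no difference, with 4.10, 3.32 and 6.71 CPM in KO and 5.01, 3.81 and 5.39 in WT (-0.05 ± 0.33).

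By position, 17 of the 18 lower calls and the 1 higher call were among 44 tested genes of chromosome 13 (median -0.86). Gaps of over 150000 bases divided these genes into 4 stretches. In the first, chr13:21715763-21832196, all 10 tested genes were negative and lower in every batch, and 5 passed (median -1.16). In the second, chr13:22035164-22043676, 3 of 5 passed (median -1.14). The third, chr13:23531050-23764406, with 28 tested genes, held 9 that fell and both *H1f2* and *H2bc4* (median -0.79). *H2bc1* was the 1 tested gene of the fourth, chr13:23933773-23934851. On chromosome 3 (chr3:96219865-96270132) 1 of 7 tested genes fell, *H2bc18*, with a median of -0.47. The summed CPM of chromosome 3 were lower in KO by a near-equal amount in each batch (-0.55, -0.53 and -0.61). The difference between stretches was not tested.

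**Figure D4:**
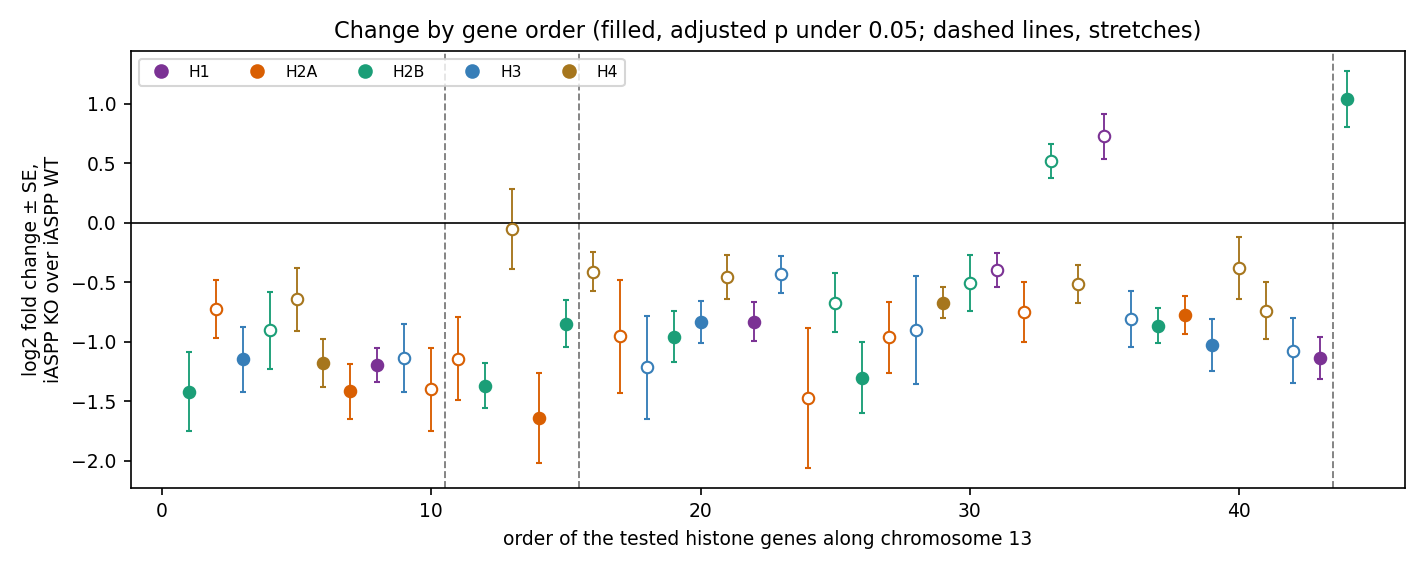
Log2 fold change ± SE (iASPP KO over iASPP WT) of the 44 tested histone genes of chromosome 13 in their order along it, coloured by class and filled where the adjusted p was under 0.05. Dashed lines part the 4 stretches, and the 3 genes above 0 are H2bc4, H1f2 and, alone in the last stretch, H2bc1.

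Many histone genes face each other across a short shared promoter. Of 11 such pairs with starts at most 1000 bases apart, 8 had both genes tested. In 6 of these both values were negative, and in *H2ac11* with *H2bc11* and *H2bc9* with *H3c7* both genes fell. Of all 53 tested histone genes 46 were negative and 18 fell, so most pairs would share the negative sign whether or not they share a promoter. The pair *H2ac6* and *H2bc4*, with starts 251 bases apart, had opposite signs (-0.75 and 0.52), as did *H2ac20* and *H2bc21*, 239 bases apart (-0.47 and 0.20). By promoter letters, the 8 tested genes with an E2F sequence were all negative, with a median of -1.22 and 4 lower calls, and the 39 without one had a median of -0.74 and 13 lower calls. These 8 genes are not 8 separate sites. The pairs *H2ac12* and *H2bc12*, *H2ac11* and *H2bc11*, and *H2bc7* and *H2ac7* each hold the same E2F bases, counted once from each side. The 12 with the octamer (median -0.76, 4 lower calls) lay near the 35 without it (median -0.85, 13 lower calls). Motifs were counted after the fold changes were known and the groups overlap, so these medians are descriptions.

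Many histone genes share sequence, which bears on their counts. Over a median 46.9% of its windows of 42 bases, the annotated transcript of a tested gene was identical to that of another gene at another place in the genome. The counting command names no option to include reads that align to several places, and by its default these are left out. The 26 tested genes with 50% or more shared windows had a median of -0.99 and 11 lower calls, and the 27 with less had a median of -0.51 and 7 lower calls. *H1f1* (0%), *H1f5* (0.855%) and *H2bc18* (0.882%) fell with next to no shared sequence. Nearly all of the *H2bc18* transcript is also part of another gene annotated over the same bases. The copies *H2ac18* and *H2ac19* were listed at 0 counts in each library with 96.3% and 100% of windows shared, and 10 of the 13 genes under the count minimum were at 0. Not all of these 10 share sequence. The shared part was 0% for *H1f7* and *H1f8*, 35.0% for *H3c14* and 88.9% to 100% for the others. Among transcripts with the stem-loop, the 19 tested genes whose annotation ends within 200 bases after it were all negative (median -0.87). The 15 with longer annotated ends, among them *H1f2* with 840 bases after it, had a median of -0.51 and 13 negative values. The 200-base limit was chosen after the values were seen.

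Histone production also needs the machinery that transcribes and cleaves these mRNAs, and 1 of its 28 tested genes passed, as lower, with a median of -0.20. Over all tested genes, 1.95% were called lower and 2.17% higher, the background for this list and those that follow. *Ccne1*, encoding cyclin E1, which with CDK2 activates NPAT, had 6.10, 9.02 and 6.42 CPM in KO and 16.3, 13.9 and 19.8 in WT, with no overlap of the groups, and fell to 0.430 (-1.22 ± 0.25, adjusted p = 0.026). The call was lost without batch 1. *Slbp* had 34.6, 46.4 and 35.3 CPM in KO and 58.4, 44.6 and 63.5 in WT and did not pass (-0.52 ± 0.18, adjusted p = 0.17). *Npat* (-0.39 ± 0.16), *Casp8ap2* (-0.40 ± 0.16), which encodes its partner FLASH, and the histone mRNA exonuclease gene *Eri1* (-0.47 ± 0.14) were lower in KO in each batch and did not pass. In batch 3 the difference was next to none for *Npat* (-0.02), -0.14 for *Casp8ap2* and -0.56 for *Eri1* (log2). *Lsm10* (0.10 ± 0.21) and *Lsm11* (-0.15 ± 0.21) of the U7 particle and *Hinfp* (0.05 ± 0.15), the H4 promoter factor, differed in sign between batches.

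A list of histone chaperones, which carry new histones to DNA, and of proteins that work with them had 6 of 23 tested genes significantly lower (median -0.21), 3 without batch 1 and 1 without batch 2. It overlaps in kind with the S-phase list below, which holds *Mcm3* to *Mcm7* where this one holds *Mcm2*. *Asf1b* also missed the threshold without batch 3 (adjusted p = 0.058). The genes that fell were *Chaf1a* of CAF-1 (-1.03 ± 0.20), *Asf1b* (-0.99 ± 0.23), *Nasp* (-0.66 ± 0.11), *Mcm2* (-0.67 ± 0.14), the CENP-A chaperone gene *Hjurp* (-0.86 ± 0.13) and *Mms22l* (-1.17 ± 0.21). *Nasp*, the H3-H4 and linker chaperone, had 92.2, 94.3 and 150 CPM in KO and 146, 146 and 240 in WT. Of 9 tested variant histone genes, *Cenpa* (-0.78 ± 0.17, adjusted p = 0.036) and *H2ax* (-0.60 ± 0.14, adjusted p = 0.037) fell and *H2aj* rose. *Cenpa* lost its call without batch 1 or batch 2, *H2ax* without any 1 of the 3 batches, and *H2aj* lost its call without batch 2. *H2aj*, a variant known to be expressed outside S phase, had 61.9, 65.1 and 104 CPM in KO and 42.1, 44.1 and 46.8 in WT, with every KO culture above every WT culture (0.76 ± 0.15, adjusted p = 0.022). In a list of 27 DNA replication and other S-phase genes, 15 fell (median -0.66), and 5 did so without batch 1 or without batch 2. Their summed CPM were 678, 619 and 1003 in KO and 1132, 916 and 1673 in WT. This list, chosen like the others with results of these data known, moved with the histone genes, and its part in their change was not tested.

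**Figure D5:**
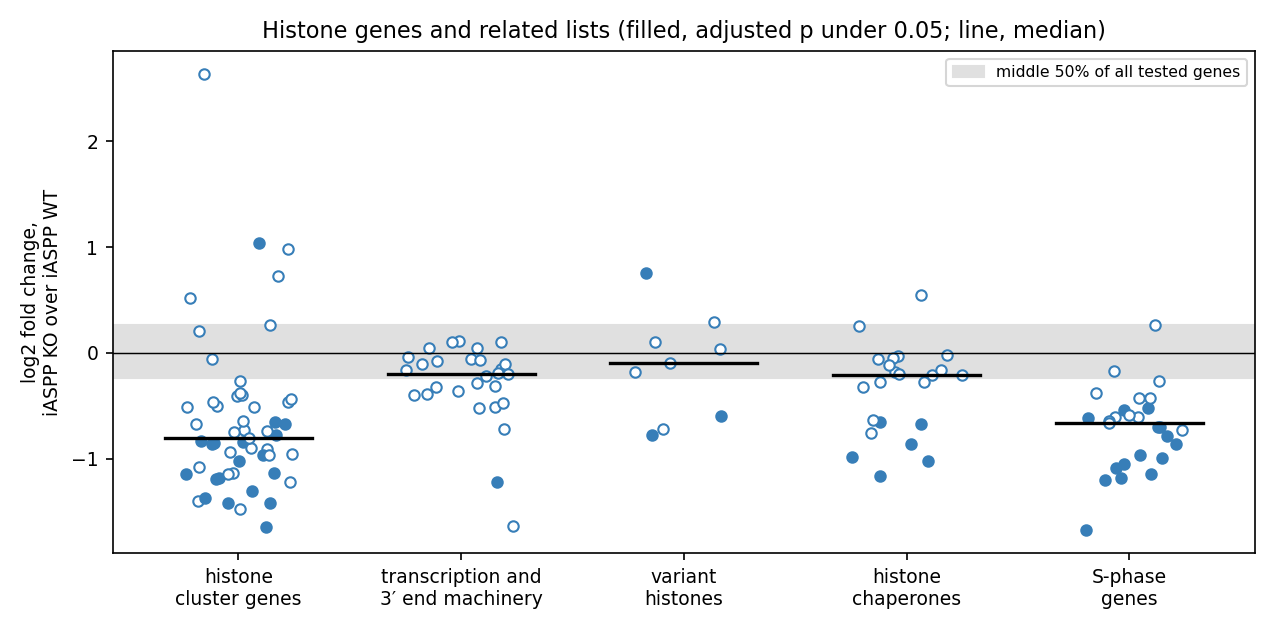
Log2 fold changes (iASPP KO over iASPP WT) of the 53 histone cluster genes beside the 28 machinery, 9 variant, 23 chaperone and 27 S-phase genes tested. Points are genes, filled where the adjusted p was under 0.05, lines are medians, and the grey band holds the middle 50% of all tested genes. The histone and S-phase medians (-0.81 and -0.66) lie below the band, and the machinery, variant and chaperone medians lie inside it.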

How the data were processed

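RNA of 6 keratinocyte cultures was compared. The authors trimmed adapters (cutadapt 2.10), aligned reads to mm10 (STAR 2.7.3, GENCODE vM25) and deposited raw counts of reads per gene name, made by featureCounts 2.0.0 on exons and by strand, with no option in its command to count reads aligned to several places. A deposited DESeq2 table of the authors' own comparison (log2 fold changes and p-values) was not used. Groups and batches follow the labels.

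Counts were tested with edgeR 4.0.16 (R 4.3.3) over all genes: filterByExpr, TMM, quasi-likelihood fit of batch and condition, Benjamini-Hochberg adjustment, threshold 0.05. SE is the log2 fold change divided by the square root of F. CPM are TMM-scaled. Within-batch values use a prior count of 2. The study states adjustment for batch, and deviations of same-batch cultures correlated (0.53, 0.68 and 0.75 over 9127 genes, other pairs -0.69 to 0.36). Counts of cultures of 1 condition differed far beyond sampling noise (chi-square per gene of 35.4 or more).

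The members and gene lists were chosen with earlier results of these data known. Named genes are those past the threshold, the 4 with most counts and the extremes of each class, genes outside chromosome 13, all H1 genes, and 7 set machinery genes with others past the threshold in the machinery, variant and chaperone lists. All 59 members matched GENCODE vM21 genes by position (GRCm38). Promoters are from RefSeq. Alternatives were no batch term, DESeq2 1.42.0, other scaling, other count filters and each batch left out. Figures used Python 3.11.15 and matplotlib 3.10.9.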

Additional observations from a re-analysis of the deposited data

How the results depend on the processing

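The count of histone genes lower in iASPP KO (18) was 0 with no replicate block (the batch term left out) and 10, 7 and 25 without batches 1, 2 and 3, and stayed within 1.5 times under the other alternatives. Lower calls over all tested genes went from 291 to 151, 117 and 662 without batches 1, 2 and 3. Under the other alternatives with the batch term they were 326 to 491. The count of higher genes (1) was 0 without the block, 2 with DESeq2, with RLE size factors or with at least 10 counts in every library, 3 with no filter, and 0 to 3 with 1 batch left out. All 19 called genes kept their sign under every alternative. Without the block no gene of the whole table passed, and all lower and higher counts of the lists were 0. With the block, and 1 batch left out, lower genes numbered 0 to 3 for machinery, 0 to 2 for variants, 1 to 6 for chaperones and 5 to 17 for S-phase genes. Higher genes numbered 0 to 2 for variants and 0 to 1 for chaperones. The machinery count was 3 with DESeq2, 4 with no filter and 2 with the stricter filter. For the summed counts, the median of members gave log2 values of -0.81 for all genes (-0.31 by sum), -0.40 for H1 (0.06), -0.85 for H2B (-0.43), -0.47 for chromosome 3 (-0.56) and -0.86 for chromosome 13 (-0.42). Raw library totals gave -0.64 for chromosome 3, and leaving out the most abundant member gave -0.49 for chromosome 3 and -0.69 for chromosome 13. Uncalled log2 values changed sign with a batch left out for *H2ac21* (-0.73 to 0.14), *H4c9* (-0.25 to 0.068, and 0.02 without batch 2), *H2bc21* (-0.46 to 0.74), *Lsm10* (-0.014 to 0.20) and *Hinfp* (-0.10 to 0.13). Where a value changed, the cause was not tested. With 2 residual degrees of freedom, low genes had wide errors, such as *H1f11-ps* (SE 1.70, 49 counts).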

Other observations

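The naming rule missed a few histone genes besides the variants. *H4f16*, an H4 gene on chromosome 6, had 45.5, 42.2 and 89.1 CPM in iASPP KO and 58.1, 59.0 and 167 in iASPP WT (log2 fold change -0.58 ± 0.14, adjusted p = 0.043 by edgeR, lower in 3 of 3 batches, adjusted p up to 0.148 with 1 batch left out). *H2aw* on chromosome 11 had 10.3, 8.98 and 16.4 CPM in KO and 8.29, 7.10 and 7.13 in WT (0.62 ± 0.26, adjusted p = 0.27, higher in 3 of 3 batches). *H2bu2* had 50 counts in all and was not tested. They were looked at after the values of the other genes were seen.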
